A study of Caenorhabditis elegans with 12 samples.

Results

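The genes described here encode the proteins of the mitochondrial ribosome in *Caenorhabditis elegans*. They were chosen by name: every gene of the count table whose WormBase name starts with *mrpl-* (large subunit) or *mrps-* (small subunit). This gave 69 of the 46739 genes in the table, 40 for the large subunit and 29 for the small subunit. Transcripts were measured by RNA-seq of whole L4 larvae (the last larval stage) grown on OP50 bacteria according to the labels (the study's methods for RNA isolation name HT115 bacteria), in 12 libraries from 2 experiments. Experiment 1 compared *atfs-1(null)* worms, which lack the open reading frame of *atfs-1*, with wild-type N2 worms. Experiment 2 compared *atfs-1(et18)* worms, in which an amino acid substitution in the mitochondrial targeting sequence of ATFS-1 impairs its import into mitochondria, with N2 worms of its own. Each of the 4 groups had 3 libraries, the labels list no treatment, and each mutant was represented by a single allele in the N2 background. Strain and experiment cannot be told apart when the mutants are set beside each other, and in RNA from whole worms fewer cells of a type cannot be told apart from less RNA per cell.

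The mitochondrial ribosome translates the few messenger RNAs of the mitochondrial DNA, which in animals encode subunits of the respiratory chain and the ATP synthase. Its ribosomal RNAs come from the mitochondrial DNA, whereas all of its proteins are encoded in the nucleus, made in the cytosol and imported. Some of these proteins descend from those of the bacterial ribosome and others were added during the evolution of mitochondria. ATFS-1 is the transcription factor of the mitochondrial unfolded protein response (UPRmt). It is degraded inside healthy mitochondria and acts in the nucleus when its import is reduced, and the study asked which mitochondrial genes depend on it during development without added stress.

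Total counts lay between 24090660 and 37050803 per library. The *atfs-1* gene had 1104 to 1558 counts in N2 and 19 to 27 counts in *atfs-1(null)* in experiment 1, and 1680 to 2734 counts in N2 and 2029 to 2377 counts in *atfs-1(et18)* in experiment 2. Values are given as CPM (counts relative to library size, scaled by edgeR's TMM factors) or as RPKM, the same per kilobase of exon. Genes of other stages and tissues differed between the groups too. All 7 adult-enriched genes (6 vitellogenin genes and *col-19*), 6 of 6 germline genes, 6 of 6 oocyte genes and 28 of 32 sperm genes tested were higher in *atfs-1(null)*, where the summed adult genes ran from 11481 to 32251 CPM against 701 to 2292 CPM in N2. All 5 intestinal markers (summed 1588 to 1877 against 5024 to 6289 CPM) and all 5 body wall muscle markers (5417 to 7029 against 10176 to 10457 CPM) were lower, as were 3 of 5 hypodermal markers (954 to 2103 against 1825 to 2475 CPM, ranges that overlapped) and 4 of 5 neuronal markers (232 to 245 against 282 to 314 CPM). Replicate 3 of *atfs-1(null)* stood apart from replicates 1 and 2. It had 32251 CPM in the adult genes against 11481 and 11848 CPM, and 5289 CPM in the oocyte genes against 2589 and 3026 CPM. In the hypodermal markers it had 954 CPM against 2103 and 2062 CPM, and in the sperm genes 632 CPM against 1364 and 1537 CPM. In experiment 2, *atfs-1(et18)* replicate 2 stood apart, with 22944 CPM in the adult genes against 5639 and 3529 CPM in replicates 1 and 3 and 1919, 7866 and 1430 CPM in N2, and 1771 CPM in the oocyte genes against 411 and 548 CPM. It was the lowest in the hypodermal markers, with 1076 CPM against 2237 and 2206 CPM. Of the muscle markers 4 of 5 were lower in *atfs-1(et18)*, and of the intestinal markers 1 of 5 was higher. No listed marker that was tested was at 0 in all libraries, and their part in the results below was not tested.

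The 69 genes lay on chromosomes I to V. There were 22 on chromosome III (31.9% of the family, against 15.2% of the genes tested), 15 on I, 12 on II and 10 each on IV and V. None lay on the X chromosome, which held 14.1% of the genes tested. Their exons covered 311 to 3706 bases in the count table (median 786), and their longest coding sequences 231 to 1569 bases (median 615). Every member passed the filter on low counts in both experiments, with between 436 and 16146 counts in any library. The exons of 11 members overlapped those of another gene, and in 4 of these the overlap was over 10% of the exon bases: *mrps-18A* (40.1%), *mrpl-34* (36.8%), *mrpl-13* (23.0%) and *mrps-16* (10.1%). Part of the reads counted for these 4 may belong to the neighbour.

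In wild type every member was expressed. The mean RPKM of its members ran from 30.4 to 141 (median 60.3) in N2 of experiment 1 and from 24.01 to 117 (median 50.7) in N2 of experiment 2, against medians of 9.15 and 10.2 RPKM over all genes tested. The median small subunit gene was at 66.4 and 57.3 RPKM and the median large subunit gene at 57.7 and 48.7 RPKM, so on this scale the small subunit genes lay slightly higher in both wild types. The ranges of the subunits overlapped almost entirely. The members with the highest levels were *mrps-14*, whose bacterial counterpart sits in the head of the small subunit, with 141 ± 12.6 RPKM in N2 of experiment 1 (SD, n = 3), *mrpl-12*, which forms the flexible stalk that contacts translation factors, with 137 ± 9.80 RPKM, and *mrpl-11*, at the base of that stalk, with 134 ± 6.23 RPKM. *mrpl-44* reached 137 RPKM over an exon length of 3706 bases, although its longest annotated coding sequence has 1182 bases, and it alone held more reads than any other member. At the low end were *mrpl-54* (30.4 ± 1.13 RPKM), *mrps-31* (34.5 ± 0.286 RPKM) and *mrps-10* (37.9 ± 1.97 RPKM). The order of the members was nearly the same in both wild types (Spearman's rho 0.97 over 69 genes, a description across genes of libraries that share the genes' lengths).

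In *atfs-1(null)* most of the family was lower than in N2. The summed CPM of the 69 genes was 4182, 4077 and 4485 in the N2 libraries and 2623, 2674 and 3121 in the *atfs-1(null)* libraries, so the groups did not overlap. In edgeR's quasi-likelihood test, with p-values adjusted after Benjamini and Hochberg over all 15620 genes tested, 60 of the 69 genes were lower past a threshold of 0.05 and none was higher, where 35.4% of all genes tested were lower and 32.9% were higher. The median log2 fold change of the family was -0.57, against -0.04 over all genes tested. For 62 members every *atfs-1(null)* library was below every N2 library, which held for 39.7% of all genes tested. The size of the decrease was not uniform, from -1.09 to 0.06 on the log2 scale with a median standard error of 0.12.

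Both subunits were lower. Of the 40 large subunit genes 35 were lower (median log2 fold change -0.58), and of the 29 small subunit genes 25 were lower (median -0.52). Their means were -0.56 and -0.56. The difference of the medians, -0.06, turned to 0.03 when members whose exons overlap another gene were left out, so no order of the subunits is given for this strain. Members were also classed by the number in the gene name, up to 36 in the large and 21 in the small subunit counting as proteins with a bacterial counterpart, except that *mrpl-47* and *mrps-24* were added to these and *mrps-18A* and *mrps-18B* taken out. Members with a bacterial counterpart by this rule (36 of 41 lower, median -0.52) and the others, here called specific to mitochondria (24 of 28 lower, median -0.63), were lower too. The rule rests on names and no sequences were compared, so single members may be misclassed. How many genes passed depended on the settings. DESeq2, which also differs in its test and was run on all 24136 genes with counts, called 38 members lower, and edgeR on the same 24136 genes called 40. Of all 24136 genes, 4922 and 4843 were lower in these fits. Library size without TMM factors gave 36. It shifted the median of all genes by 0.25 and turned the calls over all genes from 5134 higher and 5530 lower to 6244 higher and 4190 lower. Relative to the median of all genes, the family median was -0.53 with TMM factors and without them, and -0.44 with DESeq2. Subtracting that median cancels a shift shared by all genes, so the values with and without TMM factors could hardly differ. They do not bear on the fall in the number of calls. Without *atfs-1(null)* replicate 1 or replicate 2 the counts were 36 and 35 (31.1% and 28.6% of all genes tested were then lower). Without replicate 3, the mutant library closest to N2 in the median of the family, the count was 64 (37.3%).

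**Figure D1:**
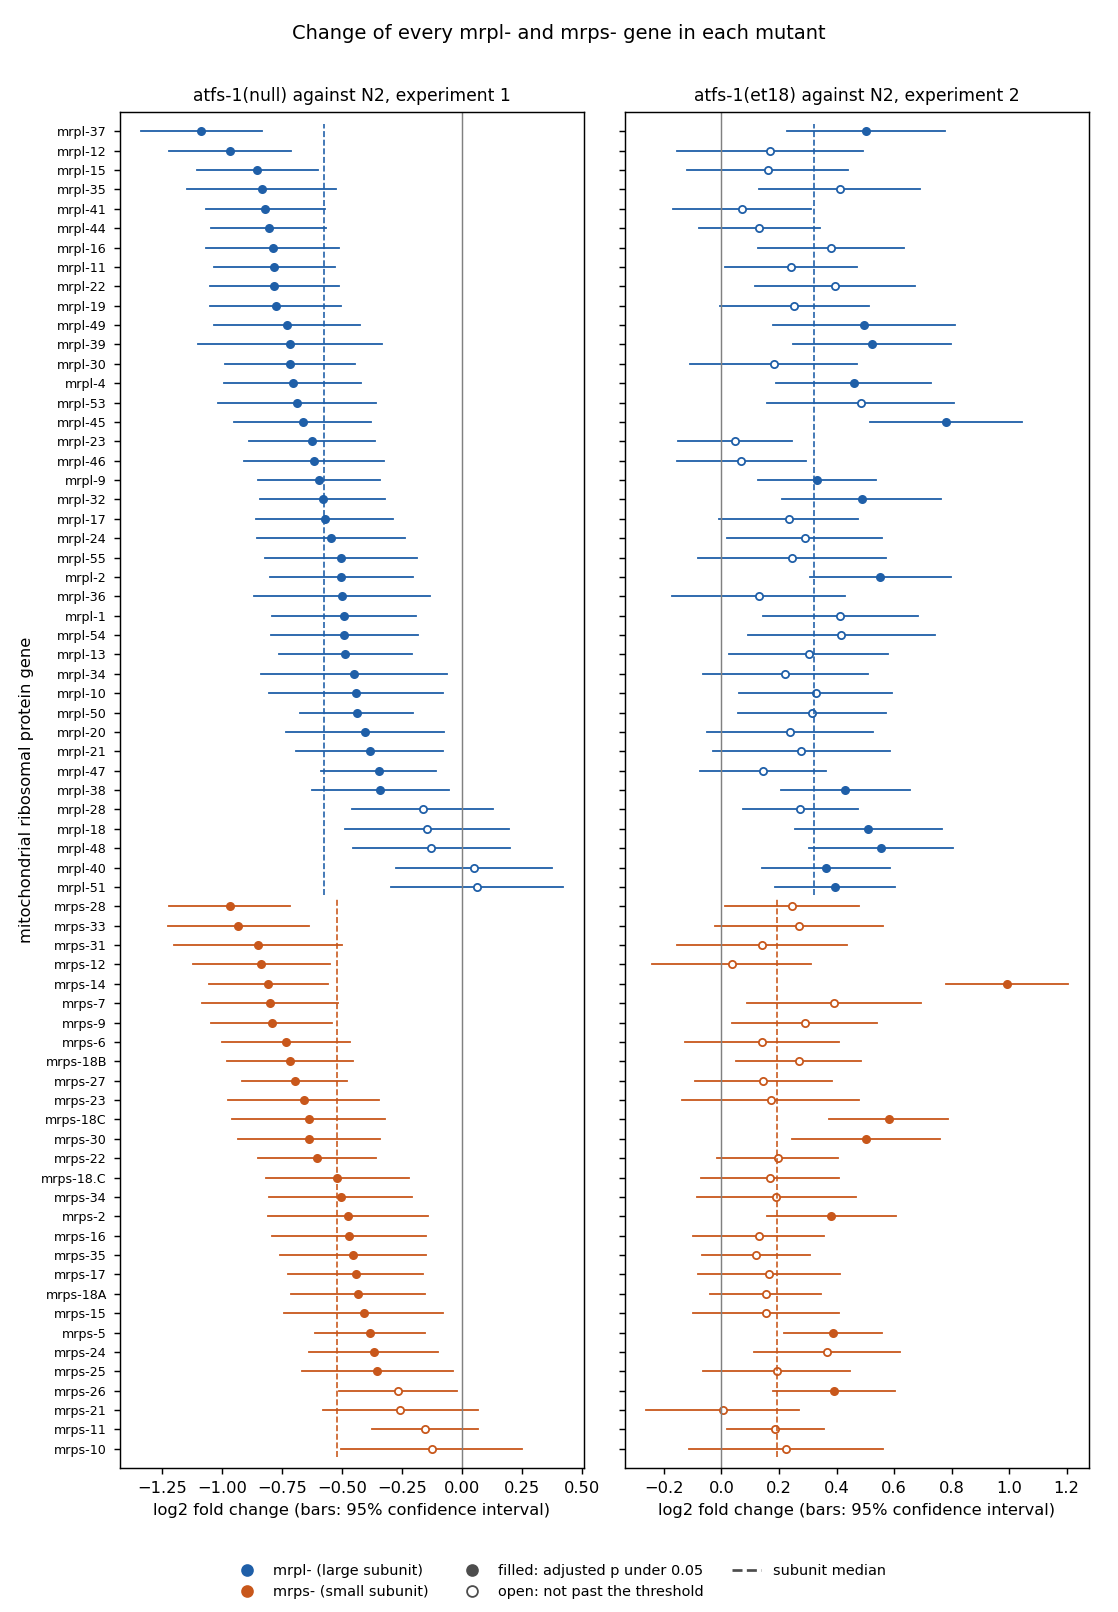
Log2 fold change of each of the 69 genes (points) with its 95% confidence interval (bars) from edgeR's quasi-likelihood fit, in atfs-1(null) (left) and atfs-1(et18) (right), each against N2 of its own experiment. Blue is mrpl-, orange is mrps-, filled points have an adjusted p under 0.05, and dashed lines are the subunit medians (-0.58 and -0.52 on the left, 0.32 and 0.19 on the right); 60 genes are filled on the left, all to the left of 0, and 19 on the right, all to the right of 0.

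The lowest large subunit genes in *atfs-1(null)* were *mrpl-37*, *mrpl-12*, *mrpl-15* and *mrpl-35*. *mrpl-37*, a protein without a bacterial counterpart, had 76.7, 67.2 and 79.7 CPM in N2 and 35.5, 34.5 and 35.3 CPM in *atfs-1(null)*. The groups were far apart. edgeR put the change at -1.09 on the log2 scale (SE 0.11, adjusted p = 0.000309). The stalk gene *mrpl-12* had 86.1, 85.5 and 96.8 CPM in N2 and 42.9, 45.05 and 49.5 CPM in the mutant, again without overlap, and changed by -0.97 (SE 0.11, adjusted p = 0.000413). *mrpl-15* and *mrpl-35*, both counterparts of bacterial proteins, changed by -0.85 and -0.83.

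Among the small subunit genes the lowest were *mrps-28*, *mrps-33*, *mrps-31* and *mrps-12*. *mrps-28* had 47.96, 48.8 and 53.6 CPM in N2 and 25.1, 25.3 and 26.45 CPM in *atfs-1(null)*, a change of -0.97 on the log2 scale (SE 0.11, edgeR's adjusted p = 0.000395). *mrps-33*, specific to mitochondria, fell by 0.93 on the log2 scale (adjusted p = 0.000751). *mrps-31* fell by 0.85 and *mrps-12*, whose bacterial counterpart lines the decoding site, by 0.84 (adjusted p = 0.00221 and 0.00101). In all of these every mutant library was below every N2 library.

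At the other end, 9 members did not pass the test. *mrpl-51*, specific to mitochondria, had 36.7, 37.6 and 39.0 CPM in N2 and 34.3, 35.9 and 48.1 CPM in *atfs-1(null)*, and *mrpl-40*, also specific to mitochondria, had 35.05, 34.1 and 39.5 against 32.9, 36.3 and 43.1 CPM. In both the groups overlapped and replicate 3 of *atfs-1(null)* was the highest library. Estimates on the log2 scale were 0.06 (95% interval -0.30 to 0.42, adjusted p = 0.731) and 0.05 (-0.28 to 0.38, adjusted p = 0.763), and both turned negative without *atfs-1(null)* replicate 3 (-0.12 and -0.08). The other members that did not pass were *mrps-10*, *mrpl-48*, *mrpl-18*, *mrps-11*, *mrpl-28*, *mrps-21* and *mrps-26*, with log2 fold changes from -0.27 to -0.13. Without TMM factors *mrpl-18*, *mrpl-28*, *mrpl-48*, *mrps-10* and *mrps-11* lay above 0, between 0.08 and 0.12.

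To ask which single genes departed from the rest of the family, the same test was run with each library scaled to the summed counts of the 69 genes, so that a log2 value of 0 means a change like that of the family total. Past an adjusted p of 0.05, 13 members of *atfs-1(null)* were higher than the family total and 6 were lower (edgeR's quasi-likelihood test), where the same scaling put 49.1% of all genes tested higher and 14.8% lower. The adjustment ran over all genes tested, most of which passed, so it moved p little (0.0222 to 0.0365 for *mrpl-15* in this test). An adjustment over the 69 members alone was not run. Of the 19 members that passed, 11 belonged to the large and 8 to the small subunit, so the departures came from both. The strongest were *mrpl-40* (0.65 relative to the family, standard error 0.09, adjusted p = 0.000914) and *mrpl-51* (0.65, standard error 0.10, adjusted p = 0.00157). *mrpl-48* (0.47), *mrps-10* (0.46), *mrps-11* (0.45), *mrpl-18* (0.45) and *mrpl-28* (0.43) followed. The bacterial counterpart of *mrpl-18* binds the 5S ribosomal RNA, that of *mrps-11* sits on the platform of the small subunit and that of *mrps-10* in its head.

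The members that fell more than the family were *mrpl-37* (-0.48, adjusted p = 0.00606), *mrpl-12* (-0.36, adjusted p = 0.00528), *mrps-28* (-0.36, adjusted p = 0.0126), *mrps-33* (-0.33, adjusted p = 0.0149), *mrpl-15* (-0.25) and *mrpl-44* (-0.21). Of the 19 departures, 10 kept an adjusted p under 0.05 in all 8 alternatives tried for them. Those 10 were *mrpl-12*, *mrpl-18*, *mrpl-28*, *mrpl-37*, *mrpl-40*, *mrpl-48*, *mrpl-51*, *mrps-11*, *mrps-26* and *mrps-28*. Between 11 departures (without N2 replicate 1 or *atfs-1(null)* replicate 2) and 22 (without *atfs-1(null)* replicate 3) were found when a library was left out, with 12 without N2 replicate 2. Of the 15620 genes tested, 6680 to 8860 were then higher and 1725 to 2447 lower on the same scale. For *mrps-11* the wild types themselves differed. Relative to the mean of the family in its own library, it was at 0.13, 0.13 and 0.04 in N2 of experiment 1, at 0.61, 0.52 and 0.39 in *atfs-1(null)*, and at 0.38, 0.39 and 0.42 in N2 of experiment 2, so the *atfs-1(null)* values overlapped those of the other wild type. *mrpl-51* and *mrpl-40* had like relative levels in both wild types (-0.50 to -0.41 and -0.54 to -0.43 for *mrpl-51*, -0.54 to -0.48 and -0.58 to -0.43 for *mrpl-40*), all below those of *atfs-1(null)*.

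**Figure D2:**
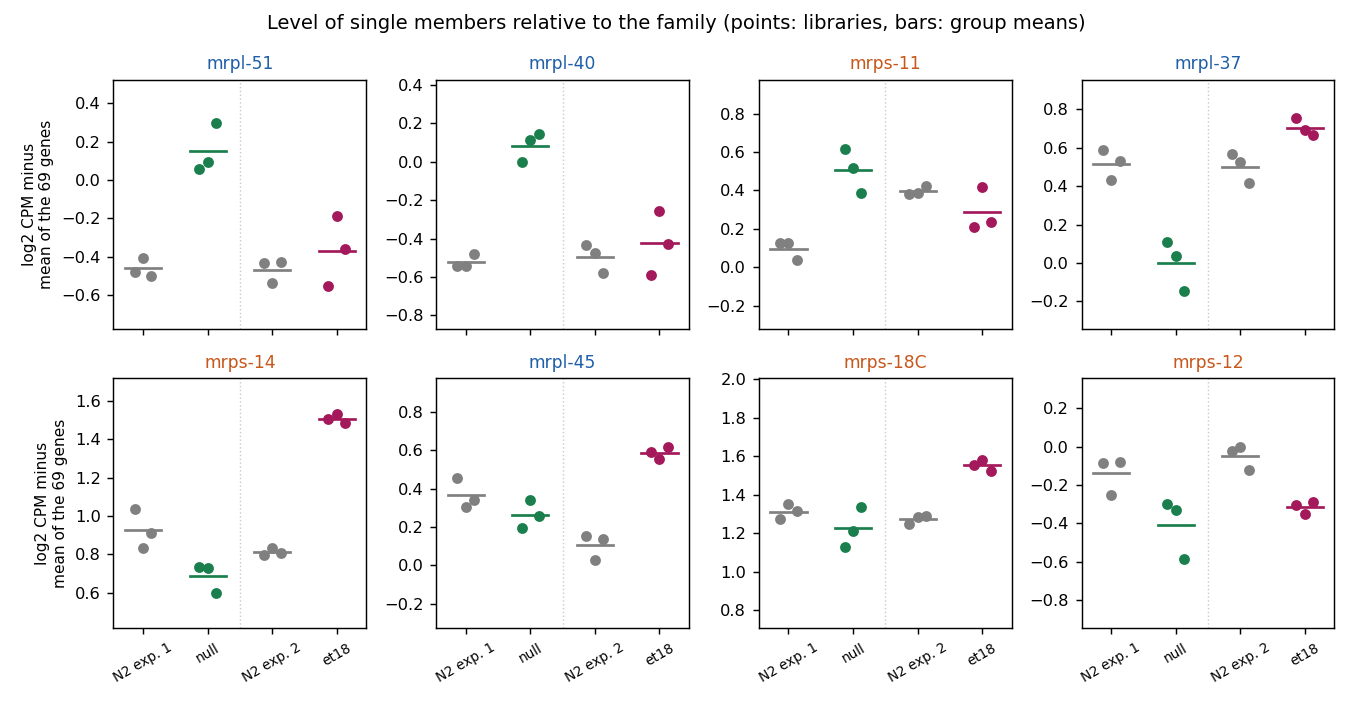
Level of 8 members relative to the family in each library: log2 CPM of the gene minus the mean log2 CPM of the 69 genes in that library (vertical axes span the same range), with points for libraries and bars for the means of 3. mrpl-51 and mrpl-40 rise from about -0.5 in both wild types to between 0.00 and 0.30 in atfs-1(null), mrpl-37 falls there, and mrps-14, mrpl-45 and mrps-18C stand above both wild types in atfs-1(et18), while the wild types of mrps-11 and those of mrpl-45 differ from each other.

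In *atfs-1(et18)* the family as a whole was higher than in N2, but by less, and fewer single genes passed. The summed CPM was 3662, 3577 and 3484 in N2 and 4829, 3968 and 4506 in *atfs-1(et18)*, so the groups did not overlap and replicate 2 was the lowest of the mutant. All 69 members had a log2 fold change above 0, with a median of 0.27 against 0.07 over all genes tested, and the estimates ran from 0.00 to 0.99. With edgeR's quasi-likelihood test 19 of 69 passed the threshold upwards and none downwards, where 9.42% of the 15639 genes tested were higher and 7.51% were lower. For 46 members the lowest *atfs-1(et18)* library exceeded the highest N2 library, as for 22.9% of all genes tested. The number of calls depended on the libraries. Without *atfs-1(et18)* replicate 2, in which 15 of the 69 genes were below the N2 mean, 52 members were higher, where 17.2% of all genes tested were, and the median was 0.36. Leaving out any other library of experiment 2 (N2 replicates 1, 2 or 3, or *atfs-1(et18)* replicates 1 or 3) left 2 or 3 members past the threshold, and *mrps-14* and *mrpl-45* passed each time. These are 2.90% or 4.35% of the family, where 3.33% to 6.26% of all genes tested were higher, so in these fits the share of members called was near that of all genes. It was above it only without *atfs-1(et18)* replicate 3 (4.35% against 4.07%).

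In *atfs-1(et18)* the estimates lay higher in the large than in the small subunit. Of the large subunit genes 13 of 40 were higher (median log2 fold change 0.32), and of the small subunit genes 6 of 29 (median 0.19). The difference of the medians was 0.13, and between 0.10 and 0.13 when single libraries were left out. The difference of the means was 0.07. Within each library, the mean log2 CPM of the large subunit genes minus that of the small subunit genes was -0.14, -0.15 and -0.16 in N2 and -0.08, -0.10 and -0.07 in *atfs-1(et18)*, so the groups did not overlap. In experiment 1 the same measure was -0.14, -0.14 and -0.10 in N2 and -0.13, -0.11 and -0.13 in *atfs-1(null)*, where the groups overlapped. Replicate 3 of that N2 (-0.099) lay within the range of *atfs-1(et18)* (-0.1015 to -0.066). The summed CPM of the large over the small subunit changed by -0.048 in *atfs-1(null)* and by -0.021 in *atfs-1(et18)* on the log2 scale, and by -0.0043 and 0.013 without *mrpl-44*, left out after its level was seen. No p is given for these measures, since members of a subunit are not replicates. The subunits lay farthest apart among the members classed by name as specific to mitochondria. There 8 of the 15 in the large subunit were higher (median 0.42) against 2 of the 13 in the small subunit (median 0.19), where 9.42% of all genes tested were higher. Counts by class were not computed with a library left out. Over whole subunits, 32 large and 20 small subunit genes passed without *atfs-1(et18)* replicate 2. Without any other library of experiment 2, 1 large and 1 or 2 small subunit genes passed. Those classed as having a bacterial counterpart had medians of 0.28 (5 of 25 higher) and 0.21 (4 of 16 higher). Counting *mrps-30* and *mrps-18A* with the large subunit, where their mammalian counterparts sit, left the difference of the medians at 0.13 in *atfs-1(et18)*. That move could not change it, since *mrps-30* (0.50) lay above both subunit medians and *mrps-18A* (0.15) below both.

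**Figure D3:**
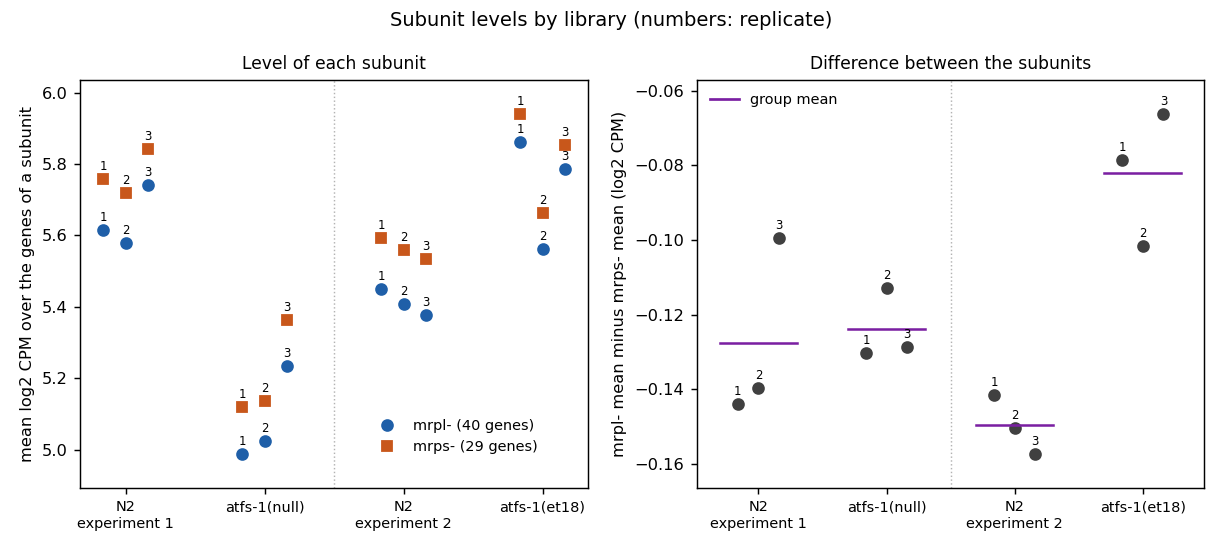
Left, mean log2 CPM over the 40 mrpl- genes (circles) and the 29 mrps- genes (squares) in each of the 12 libraries; right, the large subunit mean minus the small subunit mean in the same libraries, with the mean of each group as a line (replicate numbers beside the points). Both subunits are lower in all 3 atfs-1(null) libraries than in N2, and the difference between the subunits lies between -0.10 and -0.07 in atfs-1(et18) and between -0.16 and -0.14 in its N2.

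The change of *mrps-14* was the largest in *atfs-1(et18)*. It had 79.2, 79.1 and 76.2 CPM in N2 and 169, 141 and 157 CPM in the mutant, which puts it far outside the N2 range in every library, replicate 2 included. By edgeR the gene was 0.99 higher on the log2 scale (SE 0.09, adjusted p = 0.00146). *mrpl-45*, which in mammals anchors the ribosome to the inner membrane, followed with 50.7, 45.3 and 47.9 CPM in N2 and 89.6, 71.4 and 86.2 CPM in *atfs-1(et18)*. The groups did not overlap, and on the log2 scale the gene was 0.78 higher (SE 0.11, adjusted p = 0.00699).

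*mrps-18C* (108, 108 and 106 CPM against 175, 146 and 162 CPM, log2 fold change 0.58, adjusted p = 0.00867) and *mrps-30* (101, 96.8 and 94.2 CPM against 153, 119.1 and 142 CPM, log2 fold change 0.50, adjusted p = 0.0248) were the next highest of the small subunit. *mrps-7* had the fourth highest estimate of the small subunit (0.39) but did not pass (adjusted p = 0.0796). In the large subunit *mrpl-48* (0.56, adjusted p = 0.0175), *mrpl-2* (0.55, adjusted p = 0.0168), whose bacterial counterpart lies next to the peptidyl transferase centre, and *mrpl-39* (0.52, adjusted p = 0.0273) came after *mrpl-45*. *mrpl-37*, the lowest member of *atfs-1(null)*, was at 0.50 (adjusted p = 0.0311).

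The members with the smallest estimates were *mrps-21* (0.00, 95% interval -0.26 to 0.27), *mrps-12* (0.04, -0.24 to 0.31), *mrps-35* (0.12) and *mrps-16* (0.13) in the small subunit and *mrpl-23* (0.05, -0.15 to 0.25), *mrpl-46* (0.07), *mrpl-41* (0.07) and *mrpl-36* (0.13) in the large subunit. None passed. *mrps-12* had 44.9, 44.2 and 40.1 CPM in N2 and 48.2, 38.15 and 46.05 CPM in *atfs-1(et18)*, groups that overlapped. The estimate of *mrps-21* was -0.01 with DESeq2, so no direction is given for it. Without *atfs-1(et18)* replicate 1, *mrpl-23*, *mrpl-41*, *mrpl-46* and *mrps-12* were below 0 too.

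Scaled to the family total, 3 members were higher and 2 were lower in *atfs-1(et18)*, where this scaling put 5.28% of all genes tested higher and 25.6% lower. *mrps-14* was at 0.68 relative to the family (standard error 0.06, adjusted p = 0.00163 from edgeR) and *mrpl-45* at 0.47 (standard error 0.08, adjusted p = 0.0078), and both passed in all 8 alternatives. *mrps-18C* was at 0.27 (adjusted p = 0.0186, or 0.0572 with replicate as a block). The lower members were *mrps-12* (-0.28, adjusted p = 0.0472, or 0.111 with the block) and *mrpl-41* (-0.24, adjusted p = 0.0458, or 0.115 with the block). Only *mrps-14* and *mrpl-45* departed with the replicate block, 2 members in place of 5, where 891 of all genes tested were higher and 3693 lower. Without *atfs-1(et18)* replicate 2, 18 members departed, where 1132 of the 15639 genes tested were higher and 7075 were lower on the same scale. In N2 of experiment 2 *mrps-14* was at 0.80, 0.83 and 0.81 above the mean of the family, and in *atfs-1(et18)* at 1.505, 1.53 and 1.48, so the groups were far apart and replicate 2 was no exception. For *mrpl-45* the wild types differed, with 0.15, 0.03 and 0.14 in N2 of experiment 2 and 0.46, 0.31 and 0.34 in N2 of experiment 1. Its values in *atfs-1(et18)*, 0.59, 0.55 and 0.62, were above both but nearer to N2 of experiment 1.

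Set side by side, the estimates of the mutants lay on opposite sides of 0. In 67 of 69 members the estimate was negative in *atfs-1(null)* but positive in *atfs-1(et18)*. The share of all genes with these signs was not computed. With library size alone 62 members were below 0 in *atfs-1(null)*, and without *atfs-1(et18)* replicate 1, 64 were above 0 in *atfs-1(et18)*. In one edgeR fit of all 12 libraries, the change in *atfs-1(et18)* exceeded that of the null strain, past the threshold of 0.05, for 61 of 69 members (37 of 40 large and 24 of 29 small) and fell below it for none, where 26.1% of 16188 genes tested were higher and 22.9% were lower. Over all genes this was 4220 higher and 3705 lower, or 3637 and 5069 without TMM factors. The largest of these differences were those of *mrps-14* (1.76 on the log2 scale, standard error 0.16, adjusted p = 2.29e-05), *mrpl-37* (1.55, adjusted p = 8.15e-05) and *mrpl-45* (1.398, adjusted p = 0.000266). The calls of 14 members went down in the null strain and up in *atfs-1(et18)*, which is 23.3% of those lower in the first and 73.7% of those higher in the second. Over the whole family 27.5% were higher in *atfs-1(et18)* and 87.0% lower in *atfs-1(null)*, so neither share exceeded that of the family. The share of all genes with both calls was not computed. The 5 members higher in *atfs-1(et18)* that did not pass in *atfs-1(null)* were *mrpl-18*, *mrpl-40*, *mrpl-48*, *mrpl-51* and *mrps-26*.

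The estimates of the 69 genes in one mutant bore no visible relation to those in the other (Pearson's r -0.01, Spearman's rho 0.03 across genes, from libraries that share no sample). Within the large subunit r was 0.12 and within the small subunit -0.19. *mrpl-40* and *mrpl-51*, which did not pass in *atfs-1(null)*, were at 0.36 (adjusted p = 0.0434, or 0.0684 with the replicate block) and 0.39 (adjusted p = 0.0281, or 0.0507 with the block) in *atfs-1(et18)*. *mrpl-12*, among the lowest in *atfs-1(null)*, was at 0.17 (95% interval -0.15 to 0.49). For *mrpl-40* and *mrpl-51* the difference between the strains itself did not pass (adjusted p = 0.27 and 0.276). Members with a higher wild-type level had lower estimates in *atfs-1(null)* (Pearson's r between the log2 fold change and log2 RPKM -0.42 with the N2 libraries of the same experiment, which enter both measures, and -0.33 with those of experiment 2), with Spearman's rho of -0.40 and -0.32. In *atfs-1(et18)* r was -0.09 and rho -0.25 with the N2 libraries of its own experiment. Exon length showed little relation to the change in either mutant (r = -0.13 and 0.15).

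**Figure D4:**
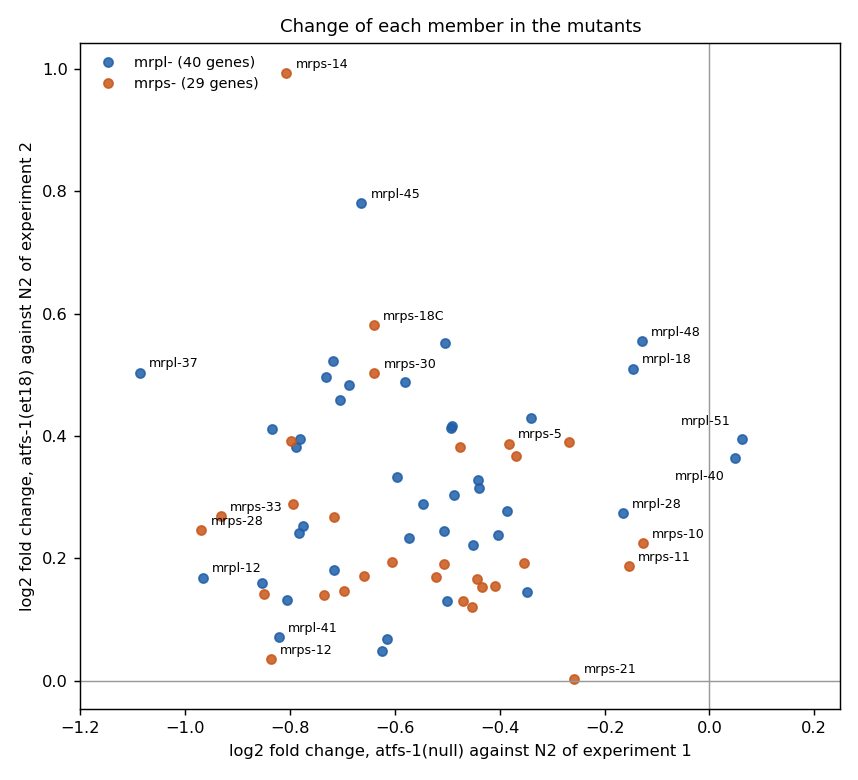
Log2 fold change of each gene in atfs-1(null) (horizontal) against that in atfs-1(et18) (vertical), each from N2 of its own experiment, with blue points for the 40 mrpl- genes and orange points for the 29 mrps- genes. The points lie to the left of 0 in all but 2 genes (mrpl-40 and mrpl-51) and at or above 0 on the vertical axis, mrps-14 is the highest at 0.99 and mrpl-37 the farthest left at -1.09.

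Genes that share a name root or a position were compared with one another. The names *mrps-18A*, *mrps-18B*, *mrps-18C* and *mrps-18.C* belong to 4 separate genes. All were lower in *atfs-1(null)*, at -0.43, -0.72, -0.64 and -0.52 on the log2 scale, and *mrps-18C* was higher in *atfs-1(et18)* (0.58), while the others were at 0.15, 0.27 and 0.17 and did not pass. *mrps-18C* (WBGene00016142, chromosome III from 4935578 to 4937227 on WBcel235) and *mrps-18.C* (WBGene00020499, chromosome II from 6736201 to 6736791) differ in the length of their coding sequence, 1209 against 417 bases. Only 1 pair of members were direct neighbours among protein-coding genes: *mrps-2* (chromosome V from 8465617 to 8467156) and *mrpl-4* (from 8467265 to 8468943), on the same strand with 108 bases between them. In *atfs-1(null)* they were at -0.48 and -0.71 and in *atfs-1(et18)* at 0.38 (adjusted p = 0.0374, or 0.0545 with the replicate block) and 0.46 (adjusted p = 0.038). *mrps-5*, whose silencing is known to lengthen the life of worms, had 106, 98.2 and 107 CPM in N2 and 74.96, 77.9 and 85.8 CPM in *atfs-1(null)*, and 100.5, 100.9 and 99.1 CPM in N2 and 137, 124 and 132.5 CPM in *atfs-1(et18)*. Neither pair of groups overlapped, and the gene changed by -0.38 (adjusted p = 0.0107) in the first strain and by 0.39 (adjusted p = 0.016) in the second.

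Several factors that work with the mitochondrial ribosome had larger changes than its proteins. Of a list of 9 other genes of mitochondrial translation, 5 were lower and 2 higher in *atfs-1(null)* (median log2 fold change -0.69) and 7 were higher in *atfs-1(et18)* (median 0.76). The elongation factor gene *tsfm-1* had 120, 104.1 and 121 CPM in N2 and 39.1, 38.8 and 49.2 CPM in *atfs-1(null)*, and 80.7, 68.8 and 72.8 CPM in N2 and 272, 206 and 256 CPM in *atfs-1(et18)*. Its log2 fold changes, -1.44 (adjusted p = 0.000276) and 1.72 (adjusted p = 0.000847), were beyond those of every member of the ribosome in both directions. The elongation factor genes *gfm-1* (-1.09 and 1.12), *tufm-1* (-1.13 and 0.74) and *tufm-2* (-0.72 and 0.94) passed in both strains. *mtcu-1* and *mtcu-2*, for enzymes that modify mitochondrial transfer RNAs, were higher in both (0.96 and 0.79 in the null strain, 0.66 and 0.76 in *atfs-1(et18)*). *mttu-1*, for another such enzyme, was higher in *atfs-1(et18)* (1.22) and did not pass in *atfs-1(null)* (0.28). *dap-3*, whose mammalian counterpart is a small subunit protein although its name falls outside the rule, was at -0.69 (adjusted p = 0.00181) and 0.33 (adjusted p = 0.0637), and *mrrf-1*, for the ribosome recycling factor, at -0.001 and 0.40, neither past the threshold.

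The ribosomal RNAs of the mitochondrial DNA were counted at low levels. The large ribosomal RNA, *MTCE.33*, had 19.4, 13.95 and 13.3 CPM in N2 and 65.3, 37.7 and 22.7 CPM in *atfs-1(null)* (1.43 on the log2 scale, SE 0.38, edgeR's adjusted p = 0.012), with a wide spread between the libraries. The small ribosomal RNA, *MTCE.7*, had 29.8, 25.9 and 30.1 CPM in N2 and 79.9, 65.6 and 23.5 CPM in *atfs-1(null)*, groups that overlapped (0.98, adjusted p = 0.0621). In *atfs-1(et18)* they were at 0.15 and 0.22 and did not pass. How ribosomal RNA was removed is not given in the sources used here.

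The proteins of the cytosolic ribosome give a measure of comparison. Of 78 genes named *rpl-* or *rps-*, 72 were lower and 3 higher in *atfs-1(null)* (median log2 fold change -0.41), so a decrease of ribosomal protein genes was not limited to those of mitochondria in that strain. In *atfs-1(et18)* 12 of the 78 were lower and none was higher (median -0.24), against 19 higher and none lower among the 69 genes of the mitochondrial ribosome (median 0.27). The large and small cytosolic subunits had medians of -0.40 and -0.41 in the null strain, and -0.23 and -0.25 in *atfs-1(et18)*. Whether the families differed was not tested as such.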

How the data were processed

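Single-end RNA-seq reads of 12 libraries were turned into one count table, and the authors deposited raw counts per gene. The submitters' processing notes name STAR 2.5.3a, featureCounts of Subread 1.5.2, edgeR 3.10.0 and the genome WBcel235; the strand setting and the treatment of multi-mapping reads are not given in the sources used here. Members and lists were chosen with earlier results of these data known. Each mutant was compared with N2 of its own experiment by edgeR 4.0.16 in R 4.3.3 (TMM, filterByExpr at 10 counts per library and 15 in total, glmQLFit and glmQLFTest, two-sided, Benjamini-Hochberg over all genes tested, threshold 0.05). The difference between strains came from one fit of 12 libraries. Departures used the summed member counts as library size. CPM and RPKM were computed here. Named members are, in each mutant, the 4 lowest and 4 highest of each subunit, the 5 with the lowest adjusted p in the scaled fits, the 3 highest and lowest in wild-type RPKM, the S18 paralogs and a few fixed genes. In experiment 2, the deviations of same-numbered libraries had correlations of 0.615, 0.499 and 0.103, and the replicate number was also fitted as a block. The labels do not say that libraries are separate cultures, while the study describes its RNA-seq comparisons as 3 biologically independent experiments. The p-values measure the spread between libraries. Alternatives used DESeq2 1.42.0, other scalings and filters, and left-out libraries. *mrpl-42* was not analysed here.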

Additional observations from a re-analysis of the deposited data

Results flagged for a closer look

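The change from N2 was not the same in the mutants for 61 of the 69 members by the test of the difference itself (edgeR's quasi-likelihood test with Benjamini-Hochberg adjustment, all 61 higher in *atfs-1(et18)*), which marks the family for a closer look. By the same test 26.1% of the 16188 genes tested were higher and 22.9% were lower, so differences between the strains were common among all genes. The median difference was 0.79 on the log2 scale. Each strain was grown in an experiment of its own, so strain and experiment cannot be told apart.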

How the results depend on the processing

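In *atfs-1(null)*, members called lower numbered 38 with DESeq2, 36 with library size alone and 35 to 64 with a library left out, and their median was -0.32 with library size alone, -0.70 with the length trend removed and -0.65 to -0.50 with a library left out. Of all genes, 4922 of 24136 were lower with DESeq2 and 4190 of 15620 with library size alone. Large minus small subunit was -0.087 with the length trend removed, 0.032 without overlapping members, 0.0027 with means, and -0.092 to -0.019 with a library left out. In *atfs-1(et18)*, members called higher numbered 11 without a filter, 37 at an unadjusted p and 2 to 52 with a library left out (median 0.18 to 0.36), and large minus small was 0.069 with means and 0.099 to 0.13 with a library left out. Of all genes, 1317 of 24000 were higher without a filter and 2891 of 15639 at an unadjusted p. The log2 ratio of summed CPM, large to small, went from -0.048 to -0.0043 in *atfs-1(null)* and from -0.021 to 0.013 in *atfs-1(et18)* without *mrpl-44*, an alternative chosen after seeing the data. Departures numbered 11 to 22 in *atfs-1(null)* and 2 to 18 in *atfs-1(et18)* with a library left out, and 3 in *atfs-1(et18)* with the geometric mean. Of the 15639 genes tested in *atfs-1(et18)* on this scale, 468 to 1132 were higher and 1805 to 7075 lower with a library left out. With the geometric mean 831 were higher and 3878 lower. Members that differed between the strains numbered 46 to 68 with a library left out, where 3496 to 4759 of all genes were higher in the same test. With the replicate number as a block there were 60 lower, 16 higher and 63 differing members, and 12 and 2 departures. In these fits 5621 of 15620 genes were lower in *atfs-1(null)* and 1674 of 15639 higher in *atfs-1(et18)*. The difference between the strains was higher for 4400 of 16188 genes and lower for 4580. On the scale of the family, 7981 genes were higher and 2429 lower in *atfs-1(null)*, and 891 and 3693 in *atfs-1(et18)*. In experiment 1 the deviations of same-numbered libraries had correlations of -0.0213, 0.516 and 0.320. The labels state no pairing in either experiment. With library size alone in *atfs-1(null)*, *mrpl-18* was at 0.10, *mrpl-28* at 0.081, *mrpl-48* at 0.12, *mrps-10* at 0.12 and *mrps-11* at 0.095. With a library left out, estimates on both sides of 0 were found for *mrpl-40* (-0.078 to 0.17), *mrpl-51* (-0.12 to 0.19) and *mrps-10* (-0.29 to 0.00032) in *atfs-1(null)*, and for *mrpl-23* (-0.0026 to 0.070), *mrpl-41* (-0.0079 to 0.16), *mrpl-46* (-0.0012 to 0.12), *mrps-12* (-0.046 to 0.13) and *mrps-21* (-0.055 to 0.066) in *atfs-1(et18)*. *mrps-21* was also at -0.011 with DESeq2 and -0.0057 without a filter. The causes were not tested. Counting error, overlapping genes and 3 libraries a group limit the single-gene values.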
